A study of Mus musculus with 24 samples.

Results

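The CC chemokine genes followed here were Ccl2, Ccl3, Ccl4, Ccl5, Ccl6, Ccl7, Ccl8, Ccl9, Ccl11 and Ccl20. They were picked by name and make up 10 of the 53801 genes in the expression table. The members were read in all 24 libraries and then separated into those whose level followed macrophage transcripts such as Csf1r and Adgre1 from library to library and those whose level did not.

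The libraries came from pancreatic stellate cells (PSC), cells of the pancreas that store fat when quiescent and become fibroblasts on activation, which were grown alone or with KPC cells, a mouse pancreatic cancer line. All PSC were wild-type C57BL/6J cells at passage 1 to 2, isolated from pools of 4 to 10 pancreata of mice aged 7 to 10 weeks with an equal gender ratio, and were harvested after 24 h or 72 h. In the standard model the cancer cells sat on the well floor, at a distance from the PSC on their membrane with 1 µm pores, and in the inverse model they sat on the lower face of that membrane, close to the PSC. Each co-culture had its own mono-cultured control, which gave 8 groups of 3 libraries.

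In the inverse model the cancer cells were plated before the PSC, which made the shared time up to 96 h, against 72 h at most in the standard model. The RNA input was 450 ng in the standard model and 120 ng in the inverse model, so model and input cannot be told apart. Values are FPKM, fragments scaled to transcript length and to the library total, so they can be compared between genes. Libraries held 15932737 to 24798761 counted fragments, with a median of 18860269. With 3 libraries a group, p-values measure only the spread between these libraries. In bulk RNA, fewer cells of a type and less RNA per cell cannot be told apart.

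CC chemokines are small secreted proteins that draw leukocytes along a gradient through G protein-coupled receptors, and they are named for a pair of adjacent cysteines. Ccl2, Ccl7, Ccl8 and the related Ccl12 are monocyte chemoattractants, Ccl11 is the eosinophil chemoattractant eotaxin, Ccl3, Ccl4 and Ccl5 are inflammatory ligands that attract macrophages and T cells, Ccl6 and Ccl9 are rodent chemokines of myeloid cells, and Ccl20 is the ligand of Ccr6. Activated fibroblasts and macrophages are both known sources of these ligands, so a culture that holds both can show either.

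The 9 members other than Ccl20 lie on chromosome 11 of GRCm38, in a group with Ccl2, Ccl7, Ccl11 and Ccl8 between 82035571 and 82116799 and a group with Ccl5, Ccl9, Ccl6, Ccl3 and Ccl4 between 83525778 and 83664683. Ccl20 lies on chromosome 1 at 83116766 to 83119167. Ccl2 overlaps Gm17268 and Ccl6 overlaps E230016K23Rik, each on the opposite strand, and with unstranded counting the reads of an overlap cannot be told apart. The stretch around the adjacent cysteine codons, which defines the family, is given for the 5 members whose levels carry the results. Capitals mark the cysteine codon pair, and the sequences are the coding strand of GRCm38 in the GENCODE M21 annotation, 42 bases each. They lie at chr11:82036488-82036529 (+) for Ccl2, chr11:82046520-82046561 (+) for Ccl7, chr11:83589368-83589409 (-) for Ccl6 and chr11:83575908-83575949 (-) for Ccl9, each within 1 exon, while that of Ccl11 joins 2 exons between 82058042 and 82061719 (+).
Ccl2: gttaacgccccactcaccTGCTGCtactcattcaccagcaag
Ccl7: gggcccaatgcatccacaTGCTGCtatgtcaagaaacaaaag
Ccl11: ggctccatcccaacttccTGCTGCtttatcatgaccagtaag
Ccl6: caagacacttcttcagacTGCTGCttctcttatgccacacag
Ccl9: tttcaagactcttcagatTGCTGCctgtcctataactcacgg

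Ccl6 and Ccl9 are neighbours on the minus strand, and their coding sequences were 66.8% identical over 373 aligned columns. The longest run of bases shared exactly by their transcripts was 25, and that of Ccl2 and Ccl7 was 23, and a longer read placed there would differ between the members of a pair. Ccl6 rose in inverse co-culture at 72 h while its neighbour Ccl9 was not called, and the difference between them was not tested. For this reason the 250 bases before the start of each gene are shown. They are from RefSeq (GRCm38.p6), at chr11:83593088-83593337 (-) and chr11:83578637-83578886 (-). In Ccl6, capitals mark the ETS core AGGAAG, found on the other strand. In Ccl9, they mark TATAAA on either strand and the NF-kB consensus.
Ccl6: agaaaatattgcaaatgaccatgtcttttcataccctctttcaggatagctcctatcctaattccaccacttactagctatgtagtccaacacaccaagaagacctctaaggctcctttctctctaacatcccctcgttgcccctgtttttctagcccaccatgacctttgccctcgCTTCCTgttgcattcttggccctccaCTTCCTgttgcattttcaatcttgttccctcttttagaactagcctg
Ccl9: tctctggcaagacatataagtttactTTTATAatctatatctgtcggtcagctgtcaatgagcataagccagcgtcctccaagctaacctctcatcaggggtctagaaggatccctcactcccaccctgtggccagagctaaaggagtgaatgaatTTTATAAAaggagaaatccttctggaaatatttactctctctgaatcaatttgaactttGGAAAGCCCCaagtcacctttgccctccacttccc

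The matches to AGGAAG in Ccl6 stood 73 to 68 and 47 to 42 bases before the start. Ccl9 held no AGGAAG in this window and carried TATAAA at 92 to 87 bases, overlapped by a match on the other strand at 94 to 89, a further one at 224 to 219, and the NF-kB consensus at 35 to 26 bases before its start. Neither held the C/EBP motif TTGCNNAA. Over 32851 promoters on both strands, AGGAAG occurred in 29.5%, TATAAA in 12.4%, TTGCNNAA in 9.56% and the NF-kB consensus in 7.25%. The longest run shared by both upstream stretches was 13 bases. Upstream sequences were matched for 5 of the 10 members, the others being Ccl3, Ccl8 and Ccl20.

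Over the 24 libraries, Ccl7 was the member with the highest median level, at 86.7 FPKM and a range from 31.0 to 283. It was followed by Ccl2 with a median of 44.8 FPKM, Ccl11 with 16.9 FPKM, Ccl9 with 12.1 FPKM and Ccl6 with 3.10 FPKM. Ccl4, Ccl3, Ccl8 and Ccl5 had medians between 0.885 and 1.39 FPKM, and Ccl20 had a median of 0. The order of neighbouring members was not fixed, since their ranges over libraries overlapped. Ccl2, Ccl7 and Ccl9 exceeded 1 FPKM in all 24 libraries, Ccl11 in 23, Ccl6 in 18 and Ccl20 in none. The plot of members by group shows these levels and the high values of replicate 2 in the standard model.

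**Figure D1:**
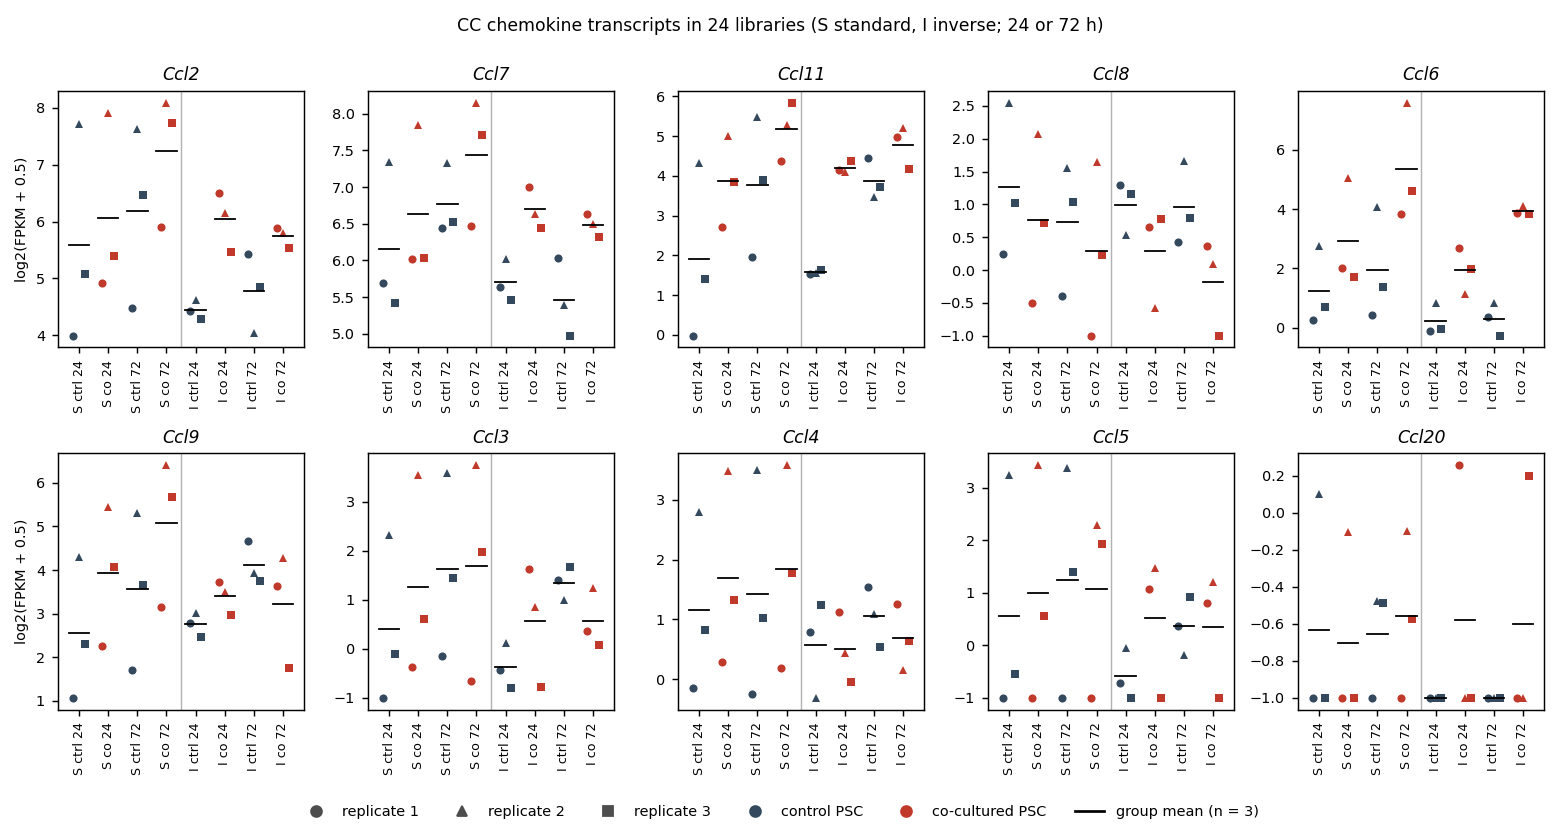
Level of the CC chemokine members as log2(FPKM + 0.5) in each library by group (S standard, I inverse; control and co-culture at 24 or 72 h). Replicate 2 of the standard model is the highest library for Ccl6 in each of its 4 groups, and Ccl6 is higher in all 3 inverse co-cultures at 72 h (13.7 to 16.7 FPKM) than in their controls (0.331 to 1.28 FPKM).

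The standard libraries with replicate number 2 stood apart at both times and in both arms. They held 590 to 1862 FPKM summed over 25 macrophage markers, against 52.8 to 253 FPKM in the other 8 standard libraries and 35.6 to 354 FPKM in the 12 inverse libraries. Csf1r, the receptor for macrophage colony-stimulating factor, was at 10.6 to 23.1 FPKM in these 4 libraries and at most at 7.86 FPKM elsewhere. Adgre1, which encodes the macrophage antigen F4/80, was at 5.60 to 16.0 FPKM in them and at most at 3.55 FPKM elsewhere. Of the stellate cell and fibroblast markers, 11 of 12 exceeded 1 FPKM in all 24 libraries, while none of the 5 B cell or 6 mast cell markers did so in any. The markers over 1 FPKM in no library were 4 of 6 for T cells, dendritic cells and neutrophils each, and 7 of 8 for acinar cells. Among the rest, Trac of the T cell list exceeded 1 FPKM in 22 libraries. Zbtb46 of the dendritic cell list and Cela1 of the acinar list did so in all 24. In inverse co-culture the epithelial markers summed to 1.84 to 43.2 FPKM at 24 h, highest in replicate 2, and to 1.504 to 8.17 FPKM at 72 h, against at most 0.587 FPKM in inverse controls. At 72 h, 5 of 5 adipocyte markers tested fell in inverse co-culture, with a median log2 fold change of -3.69, where 9.57% of all genes fell. The part of these other cells in the results was not tested.

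Chemokine transcripts in the bulk RNA of PSC cultures with KPC cells in close apposition were compared with those of the inverse controls. The cell type that made them was not tested. At 24 h, the chemoattractants Ccl2, Ccl7 and Ccl11 rose, and Ccl6 was higher in all 3 libraries without passing the test. At 72 h, Ccl6 and Ccl7 rose, and the difference of Ccl6 was the greatest of the members. Of the members tested in the inverse model, 0 of 7 were called as lower at 24 h and 0 of 8 at 72 h. The shares of all genes that fell were 1.39% and 9.57%. Without regard to the test, 2 of the 7 and 4 of the 8 were lower.

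Ccl11 was at 2.38, 2.46 and 2.62 FPKM in inverse controls at 24 h and at 17.2, 16.6 and 20.1 FPKM in inverse co-cultures. The groups did not overlap, and the libraries of each lay close together. The mean rose from 2.49 ± 0.122 to 17.96 ± 1.86 FPKM (SD, n = 3), a log2 fold change on the log2(FPKM + 0.5) scale of 2.62 ± 0.15 (SE, limma adjusted p = 0.000461), and the call held without any 1 library. At 72 h, Ccl11 was at 21.2, 10.5 and 12.6 FPKM in controls and at 30.9, 36.7 and 17.6 FPKM in co-cultures. Here the third co-culture lay below the first control, and the log2 fold change of 0.92 ± 0.32 did not pass (adjusted p = 0.0985). Without the third co-culture it did, at 1.22 (adjusted p = 0.0291).

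Ccl2 was at 21.1, 24.2 and 19.1 FPKM in inverse controls at 24 h and at 90.2, 70.9 and 43.5 FPKM in inverse co-cultures. All co-cultures lay above all controls, with the first the highest. On the log2 scale the difference was 1.59 ± 0.24 (SE, n = 3, limma adjusted p = 0.0159). The call rested on single libraries, since the adjusted p was 0.0681, 0.0553 and 0.0784 without control 1, 2 and 3 in turn and 0.0636 without co-culture 2. At 72 h, Ccl2 was at 42.5, 16.0 and 28.4 FPKM in controls and at 58.8, 55.4 and 46.1 FPKM in co-cultures. The groups again did not overlap, but the controls spread more widely, and the log2 fold change of 0.97 ± 0.31 had an adjusted p of 0.0763. Without control 1 it was 1.30 (adjusted p = 0.0406).

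Ccl7, which lies next to Ccl2, was at 49.2, 64.3 and 43.8 FPKM in inverse controls at 24 h and at 128, 99.1 and 86.7 FPKM in inverse co-cultures. Its values at 72 h were 64.9, 41.7 and 31.0 FPKM in controls and 99.0, 89.96 and 79.3 FPKM in co-cultures. At both times the co-cultures lay above the controls without overlap. The log2 fold change was 0.99 ± 0.18 at 24 h (limma adjusted p = 0.0275) and 1.02 ± 0.24 at 72 h (adjusted p = 0.0359). At 24 h the call was lost without control 1 (adjusted p = 0.103), control 3 (0.127) or co-culture 2 (0.0900), and under a replicate block (0.0563). At 72 h it was lost without control 2 (0.0907), control 3 (0.0966), co-culture 1 (0.120) or co-culture 2 (0.0614).

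Ccl6 was at 0.425, 1.27 and 0.466 FPKM in inverse controls at 24 h, or 6, 28 and 7 fragments, and at 6.03, 1.72 and 3.43 FPKM in inverse co-cultures. The groups did not overlap, although the second library of each nearly met. This gave a log2 fold change of 1.72 ± 0.43 (adjusted p = 0.0863). At 72 h, Ccl6 was at 0.781, 1.28 and 0.331 FPKM in controls, or 7 to 20 fragments, and at 14.3, 16.7 and 13.7 FPKM in co-cultures, or 227 to 257 fragments. The 3 co-cultures lay close together and far above the controls. Only the second control exceeded 1 FPKM at either time, so Ccl6 passed the filter through its co-cultures, the groups where it was high. The mean rose from 0.798 ± 0.477 to 14.9 ± 1.56 FPKM (SD, n = 3), a log2 fold change of 3.63 ± 0.29 (SE, limma adjusted p = 0.0027), and without any 1 library it was 3.34 to 3.89 and still passed.

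Csf1r and Adgre1 moved the other way in the same libraries. Csf1r was at 5.13, 5.44 and 7.86 FPKM in inverse controls at 72 h and at 2.29, 2.72 and 1.24 FPKM in inverse co-cultures. Adgre1 was at 2.61, 1.98 and 3.55 FPKM in these controls and at 0.314, 0.559 and 0.454 FPKM in the co-cultures. Neither overlapped between groups, and the log2 fold changes were -1.39 ± 0.29 for Csf1r (limma adjusted p = 0.0222) and -1.75 ± 0.30 for Adgre1 (adjusted p = 0.0132). Of 17 macrophage markers tested, 10 fell, where 9.57% of all genes fell. Of the same markers 1 rose, Cd53, which encodes a leukocyte tetraspanin, where 3.27% of genes rose. The summed markers were at 180 to 354 FPKM in controls and at 90.6 to 120 FPKM in co-cultures. Thus Ccl6 rose in libraries whose macrophage marker sum was lower. Not all myeloid transcripts were lower there. Clec4n and Mgl2, lectins of myeloid cells outside the marker list, were higher in all co-cultures than in all controls. Clec4n was at 0.092, 0.061 and 0 FPKM in controls and at 1.33, 1.28 and 0.399 FPKM in co-cultures, and Mgl2 is given below. Both were picked for their likeness to Ccl6 over these same libraries.

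Ccl9, the neighbour of Ccl6, was at 6.42, 7.58 and 4.99 FPKM in inverse controls at 24 h and at 12.8, 10.8 and 7.29 FPKM in inverse co-cultures. At 72 h it was at 24.9, 14.9 and 13.02 FPKM in controls and at 11.95, 18.9 and 2.89 FPKM in co-cultures. The groups overlapped at both times. Its log2 fold change was 0.64 ± 0.23 at 24 h (adjusted p = 0.22) and -0.90 ± 0.59 at 72 h (adjusted p = 0.33). The plot of Ccl6 and Ccl9 beside Csf1r and Adgre1 shows how these levels ran.

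**Figure D2:**
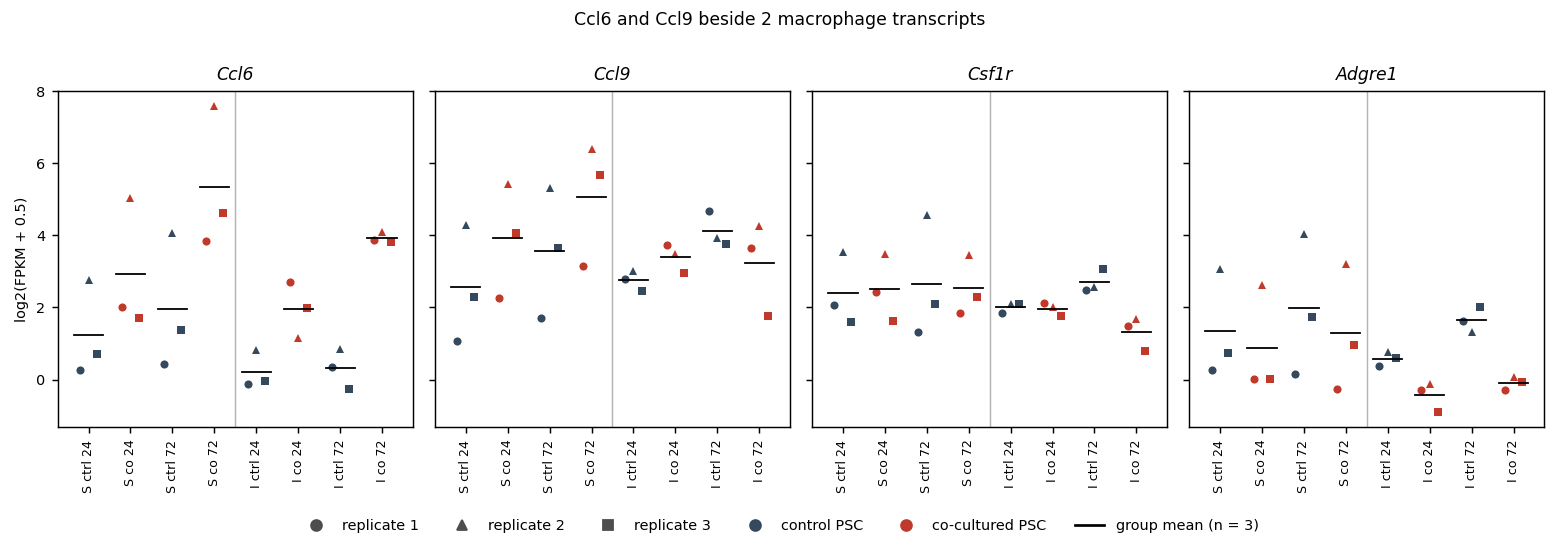
Ccl6, Ccl9, Csf1r and Adgre1 as log2(FPKM + 0.5) in each of 24 libraries by group. At 72 h in the inverse model, Ccl6 is higher in all 3 co-cultures than in all 3 controls, Csf1r and Adgre1 are lower in all 3, and Ccl9 overlaps.

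Among the inflammatory ligands Ccl3, Ccl4 and Ccl5, levels in the inverse model were low. Ccl3 was at 0.0770 to 0.579 FPKM in controls and 0.0810 to 2.59 FPKM in co-cultures at 24 h, and at 1.48 to 2.68 FPKM and 0.559 to 1.87 FPKM at 72 h. At 72 h its log2 fold change was -0.79 ± 0.38 (adjusted p = 0.19). Ccl4 stayed between 0.305 and 2.42 FPKM and Ccl5 between 0 and 2.25 FPKM in the 12 inverse libraries. The monocyte chemoattractant Ccl8 was at 1.97, 0.947 and 1.73 FPKM in controls and at 1.08, 0.171 and 1.21 FPKM in co-cultures at 24 h, with a log2 fold change of -0.71 ± 0.42 (adjusted p = 0.51). At 72 h it was at 0.846, 2.67 and 1.23 FPKM in controls and at 0.782, 0.562 and 0 FPKM in co-cultures, apart from each other but too low to be tested. In Ccl3, Ccl4 and Ccl5 the groups overlapped at both times.

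Across the members, 3 of 7 tested rose in the inverse model at 24 h, where 1.08% of 12827 genes rose and 2.47% changed in either direction. Of the 7, 4 had all co-cultures above all controls, as did 7.38% of genes. Ccl3, Ccl5 and Ccl20 were not tested at 24 h, nor Ccl8 and Ccl20 at 72 h, since fewer than 3 libraries exceeded 1 FPKM. At 72 h, 2 of 8 members tested rose, where 3.27% of 13066 genes rose and 12.8% changed, and 3 of 8 lay above without overlap, as did 9.53% of genes. Ccl6, which passed the filter through its co-cultures, is in the counts without overlap at both times and in the rise at 72 h. Over the members the median log2 fold change was 0.99 at 24 h and 0.44 at 72 h, beside -0.06 and -0.16 over all genes tested. In one model over all 24 libraries, which lends the wide spread of the standard groups to the inverse ones, no member was called at 24 h, with adjusted p-values of 0.668 for Ccl2, 0.626 for Ccl7 and 0.310 for Ccl11. In that model Ccl6 alone was called at 72 h (adjusted p = 0.0328), and Ccl7 had an adjusted p of 0.215.

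**Figure D3:**
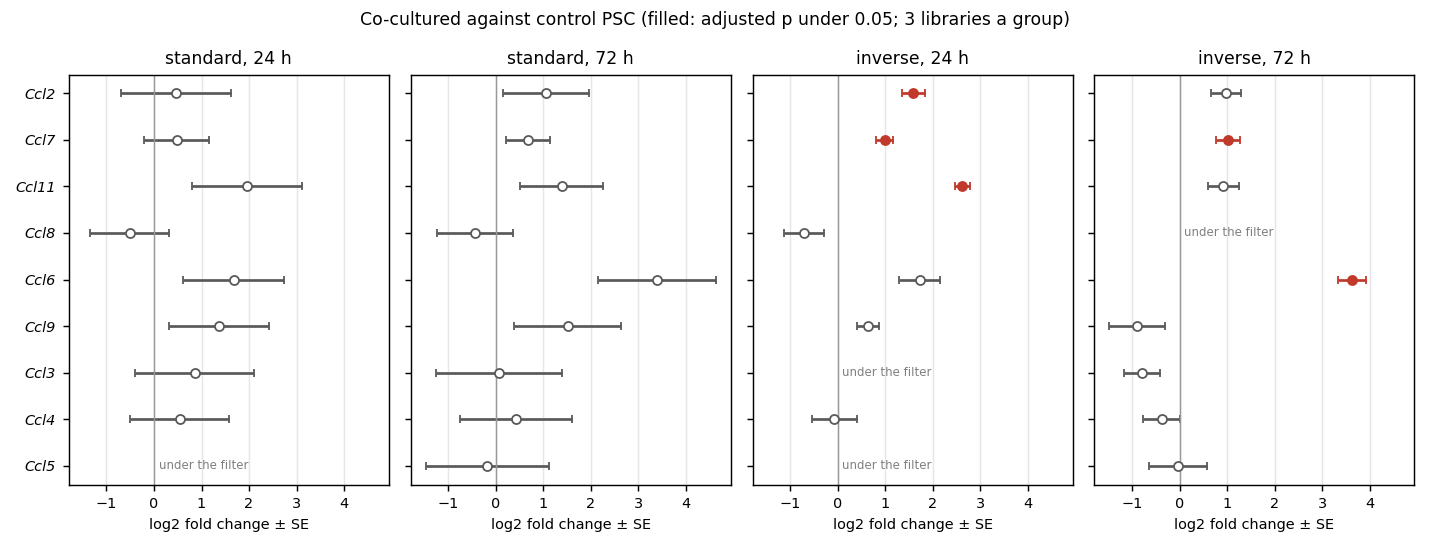
Log2 fold change of each tested member, co-culture against control, with its SE (limma, 3 libraries a group; filled points have an adjusted p under 0.05). Ccl2, Ccl7 and Ccl11 at 24 h and Ccl6 and Ccl7 at 72 h are filled in the inverse model, while no point is filled in the standard model, where the SE of Ccl6 is 1.07 at 24 h and 1.24 at 72 h.

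In standard co-culture, where KPC cells were distant, no member passed the test without regard to replicate number. The spread between replicates was wide, with replicate 2 high in control and co-culture alike. Ccl6 was at 0.695, 6.30 and 1.13 FPKM in controls at 24 h and at 3.54, 32.3 and 2.76 FPKM in co-cultures. Its level at 72 h was 0.859, 16.2 and 2.09 FPKM in controls and at 13.9, 192 and 24.1 FPKM in co-cultures. Within each number the co-culture was the higher at both times, but control 2 lay among the co-cultures, so the groups overlapped. By replicate number, the ratio of co-culture to control was 5.09, 5.13 and 2.44 at 24 h. It was 16.2, 11.9 and 11.5 at 72 h.

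Same-numbered standard libraries deviated together, with correlations over genes of 0.55 to 0.82 at 24 h and 0.48 to 0.60 at 72 h, so the numbers pair these libraries. The log2 fold change of Ccl6 at 72 h was 3.39 ± 1.24 (SE, n = 3, limma adjusted p = 0.759) (a block for the replicate number gave 3.39 ± 0.14 and adjusted p = 0.0144). With the block, Ccl6 was the one gene of 12863 called, or 0.00777%. At 24 h it was 1.68 ± 1.07 (adjusted p = 1) and with the block 1.68 ± 0.26 (adjusted p = 0.0425). The summed macrophage markers had ratios of 0.873, 0.786 and 0.879 at 24 h and of 2.22, 0.6 and 1.00 at 72 h in the same pairs. Adgre1 was lower in all 3 pairs at both times, with ratios of 0.439 to 0.749 and 0.512 to 0.551. Csf1r went both ways, with ratios by number of 1.32, 0.956 and 1.01 at 24 h and of 1.58, 0.457 and 1.17 at 72 h.

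Ccl9 was at 1.60, 19.1 and 4.41 FPKM in standard controls at 24 h and at 4.31, 42.9 and 16.2 FPKM in standard co-cultures. At 72 h it was at 2.79, 39.4 and 12.2 FPKM in controls and at 8.37, 84.5 and 50.5 FPKM in co-cultures. Its ratio by number was above 1 in all 6 pairs, with 2.69, 2.24 and 3.68 for the earlier time and 3.00, 2.14 and 4.16 for the later, while the groups overlapped. Its log2 fold change was 1.37 ± 1.06 at 24 h (adjusted p = 1; with the block, SE 0.16 and adjusted p = 0.0233) and 1.51 ± 1.13 at 72 h (adjusted p = 0.84; with the block, 0.217).

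Ccl11 was at 0.488, 19.6 and 2.16 FPKM in standard controls at 24 h and at 6.09, 31.8 and 14 FPKM in standard co-cultures. Its level at 72 h was 3.39, 44.1 and 14.5 FPKM in controls and at 20.3, 38.7 and 56.7 FPKM in co-cultures. Co-culture was the higher in all pairs but the second at 72 h, where the ratio was 0.877, and the groups overlapped. Its log2 fold change was 1.96 ± 1.16 at 24 h (adjusted p = 1; with the block, 0.0727) and 1.39 ± 0.87 at 72 h (adjusted p = 0.799; with the block, 0.436).

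Ccl2 was at 15.4, 209.7 and 33.3 FPKM in standard controls at 24 h and at 29.6, 239 and 41.4 FPKM in standard co-cultures. Its level at 72 h was 21.8, 197 and 88.3 FPKM in controls and at 59.7, 272 and 213 FPKM in co-cultures. Ccl7 ranged from 42.4 to 162 FPKM in controls and from 64.7 to 229 FPKM in co-cultures at 24 h, and from 86.7 to 160.3 FPKM and from 88.4 to 283 FPKM at 72 h. Both were higher in co-culture in all 6 pairs, by ratios of 1.14 to 2.74 for Ccl2, but the groups overlapped. The log2 fold changes ranged from 0.47 ± 1.16 for Ccl2 at 24 h to 1.05 ± 0.90 for Ccl2 at 72 h, and none passed.

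Ccl3, Ccl4 and Ccl5 were higher in replicate 2 than in the other replicates of each standard group. Ccl3 was at 4.53 and 11.5 FPKM in controls 2 at 24 h and 72 h, and at most at 2.21 FPKM in the other standard controls. Ccl4 was at 6.47 to 11.5 FPKM and Ccl5 at 4.39 to 10.3 FPKM in the 4 libraries with number 2, and at most at 2.93 and 3.32 FPKM in the other 8. Ccl5 was listed at 0 in all 4 standard libraries with number 1. Ccl20 was above 0 in 8 of 24 libraries, with a highest value of 0.695 FPKM, and was not tested.

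In the standard model, 7 of 8 members tested were higher in co-culture in all 3 pairs at 24 h, against 17.5% of genes, with Ccl8 lower in all 3 and Ccl5 not tested, and 5 of 9 at 72 h, against 10% of genes. Without regard to number, no member had all co-cultures above all controls, as 3.35% and 3.36% of genes did. The limma test called 0 members at either time (0% of genes), and limma-voom on the recovered fragments also called 0. At an unadjusted p under 0.05 there were 0 members at 24 h and 1, Ccl6, at 72 h. With the replicate number as a block, 2 members were called at 24 h, where 1.22% of genes were, and 1 at 72 h. Over the members tested, the median log2 fold change was 0.70 at 24 h and 0.67 at 72 h, beside -0.01 and -0.09 over all genes. With both number 2 libraries left out, the log2 fold change of Ccl6 was 1.38 ± 0.36 at 24 h and 3.33 ± 0.47 at 72 h (n = 2), and no member was called.

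The difference between the models in the effect of co-culture was tested over all 24 libraries, and 0 of 9 members were called at either time (limma, 0% of genes). None had an unadjusted p under 0.05, and limma-voom called 0. For Ccl6 at 72 h, the effect in the inverse model minus that in the standard model was 0.24 on the log2 scale, with a 95% confidence interval from -2.68 to 3.15, so a difference of up to several log2 units in either direction was not detectable. For Ccl9 at 72 h it was -2.41 ± 1.38, with an interval from -5.29 to 0.47 (adjusted p = 0.997), and a replicate block gave an SE of 0.47 and an adjusted p of 0.0664.

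Time in culture was compared within each arm. In inverse controls, the members Ccl3, Ccl9 and Ccl11 rose from 24 h to 72 h, or 3 of 7 tested where 19.2% of genes changed and 10.2% rose. Ccl3 was at 0.0770 to 0.579 FPKM at 24 h, so it passed the filter only through the 72 h libraries, where it was high. Its place in this count thus rests on the filter. Ccl11 rose by a log2 fold change of 2.29 ± 0.24 (limma adjusted p = 0.0018), Ccl3 by 1.72 ± 0.35 (adjusted p = 0.0115) and Ccl9 by 1.37 ± 0.24 (adjusted p = 0.0070). In each, all libraries at 72 h lay above all at 24 h, with Ccl11 at 10.5 to 21.2 FPKM against 2.38 to 2.62 FPKM. Csf1r rose by 0.69 (adjusted p = 0.0393) and Adgre1 by 1.08 (adjusted p = 0.0246) with them, as did 12 of 17 macrophage markers tested. Of 5 adipocyte markers tested, 4 rose as well, with a median log2 fold change of 1.49, and the part of either cell type was not tested. In one model over 24 libraries none of the 3 members was called, with adjusted p-values of 0.412 for Ccl3, 0.449 for Ccl9 and 0.169 for Ccl11. Without any 1 library at 72 h, Ccl3 exceeded 1 FPKM in too few libraries to be tested.

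In inverse co-cultures, 0 of 8 members tested were called over time (limma), where 0.00784% of genes were. Of these, 2 had an unadjusted p under 0.05, and limma-voom called 0. Ccl6 was at 1.72 to 6.03 FPKM at 24 h and at 13.7 to 16.7 FPKM at 72 h without overlap, with a log2 fold change of 1.99 ± 0.35 (adjusted p = 0.131). In the standard model, 0 of 9 members were called over time in controls or in co-cultures, with 0% of genes called, none at an unadjusted p under 0.05 and none by limma-voom. Between the controls of both models, 0 of 7 members were called at 24 h and 0 of 9 at 72 h (limma and limma-voom, 0% of genes). At an unadjusted p under 0.05 there were 0 and 1, the latter being Ccl7, which was lower in inverse controls at 72 h by a log2 fold change of -1.30 ± 0.34 (adjusted p = 0.80).

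To separate members by macrophage transcripts, each level was taken as its deviation from the group mean on the log2(FPKM + 0.5) scale and set beside a score, the mean of 23 macrophage markers treated likewise. A member was taken to track the score at a Pearson r of at least 0.7 and not to track it under 0.5. Over all 24 libraries 9 of 9 members with enough signal met the first limit, but the 4 standard libraries with number 2 deviated by 1.58 to 2.25 log2 units and the other 20 by -1.98 to 0.42, so that a single r joins separate clusters and is not given. The correlations below are descriptions over libraries that share a group mean and may share isolations, and Ccl20 was not classed.

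Over the 20 other libraries, a set chosen after the values were seen, Ccl2, Ccl3 and Ccl5 met the limit for tracking the macrophage score. The Pearson r and Spearman rho were 0.90 and 0.88 for Ccl2, 0.84 and 0.88 for Ccl3, and 0.87 and 0.92 for Ccl5. Ccl6, Ccl7 and Ccl8 did not track it, with r of 0.22, 0.33 and 0.33 and rho of 0.22, 0.40 and 0.37. Ccl11, Ccl9 and Ccl4 lay between, with r of 0.70 (just under the limit), 0.69 and 0.57. Each standard group then held 2 libraries, whose deviations mirror each other. Over all 24 libraries with the replicate number as a block within each model, Ccl5 alone met the limit, with an r of 0.72, and Ccl2 and Ccl3 fell to 0.59 each.

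Over the 12 inverse libraries alone, where the score deviated by only -0.65 to 0.42, the same 3 members met the limit. Ccl2 had an r of 0.78 and a rho of 0.73, Ccl3 0.80 and 0.77, and Ccl5 0.83 and 0.89. In these libraries Ccl3 rested on 1 to 49 fragments and Ccl5 on 0 to 31. The lowest score deviation was that of co-culture 3 at 24 h, where Ccl3 held 1 fragment and Ccl5 held 0. The remaining 6 did not track, from Ccl9 with an r of 0.34 and Ccl7 with 0.16 down to Ccl6 with -0.29 and Ccl8 with -0.41. Ccl2 and Ccl7, which lie side by side and rose together in inverse co-culture, thus differed in this measure, with r of 0.78 and 0.16. No test was made of that difference.

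**Figure D4:**
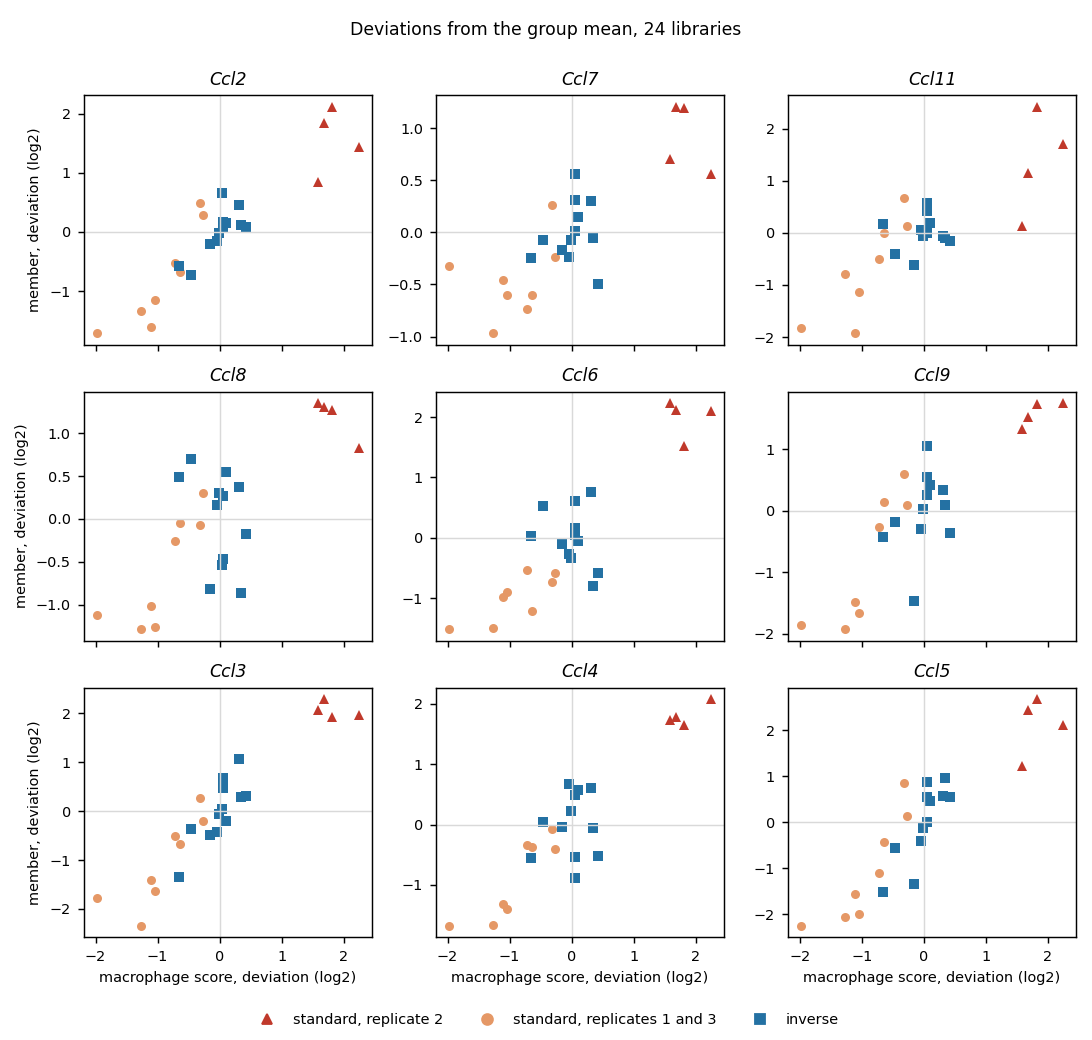
Deviation of each member from its group mean against that of the macrophage score, both in log2 units, for 24 libraries (triangles, standard replicate 2; circles, standard replicates 1 and 3; squares, inverse). The 4 triangles lie at score deviations of 1.58 to 2.25, apart from the other 20 libraries.

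**Figure D5:**
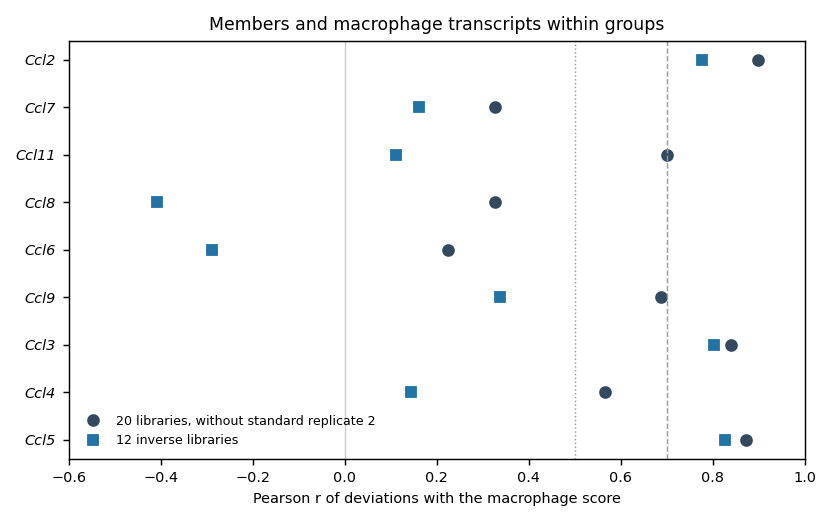
Pearson r of each member's deviations with the macrophage score over different sets of libraries, with lines at 0.7 and 0.5. Ccl2, Ccl3 and Ccl5 stay above 0.7 without the 4 standard replicate 2 libraries and in the 12 inverse libraries, while Ccl6 falls to 0.22 and -0.29; with a replicate block (not plotted) Ccl2 and Ccl3 are at 0.59 and Ccl5 is at 0.72.

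The genes whose level ran most like a member were sought among 14452 genes over the 24 libraries, where the standard libraries with number 2 weigh on every r. For Ccl6 they were Clec4n and Mgl2, lectins of myeloid cells, with r of 0.93 and 0.92, then Ccl12, Fem1b and Has1. Mgl2 was at 1.72, 30.5 and 5.66 FPKM in standard co-cultures at 72 h and at 0, 0.494 and 0 FPKM in their controls. In the inverse model at 72 h it was at 1.81, 1.04 and 2.62 FPKM in co-cultures and at 0.118, 0 and 0.228 FPKM in controls. All these co-cultures lay above all controls in both models. Of all genes tested at 72 h, 3.36% did so in the standard model and 9.53% in the inverse model. Mgl2 was picked for its likeness to Ccl6 over these same libraries, so a pattern shared with Ccl6 follows from that choice. For Ccl7 they were Ccl2, Ccl12, Clec4n, Ccl6 and Pf4, with r of 0.84 to 0.92, and for Ccl2 they were Slc15a3, Tnfaip3, Ccl7, Ccl12 and Fam78b.

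The list for Ccl3 held Cxcl2 (r of 0.94), Cd84, Ccl5, Ly86 and Laptm5, and that for Ccl5 held Ccl3, Casp1, Nfkbia, Cxcl2 and Itgb2. Several of these are leukocyte genes, among them Cd84, Ly86, Laptm5 and Itgb2, and Laptm5 is one of the macrophage markers of the score. For Ccl9 the genes were Chl1 (r of 0.94), Sod2, Gfra1, Il33 and Wfdc17, and for Ccl11 Hs3st1 (0.92), Cx3cl1, Hnrnpa3, Eps8 and Begain. None of these is a macrophage marker of the score, and the lists of Ccl2 and Ccl5 hold none either. For Ccl4 they were ENSMUSG00000095585, AI467606, Cxcl2, Fgd5 and Cd200r1, and for Ccl8, with r of at most 0.81, they included Alox5ap, mt-Tc, R74862 and Tmem229b.

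Ccl12, a monocyte chemoattractant and no member, lies between Ccl11 and Ccl8. It was listed at 0 in all 3 inverse controls at 24 h and was at 0.995, 1.20 and 0.976 FPKM in their co-cultures. In the standard model at 72 h it was at 1.14, 36.3 and 3.24 FPKM in co-cultures and at 0, 6.42 and 1.14 FPKM in controls. Of the 11 other CC chemokines listed, 4 exceeded 1 FPKM in at least 3 libraries and 7 in none. In standard co-culture 4 were tested at each time and 0 called, where 0% of all genes were called. In inverse co-culture 3 were tested at each time and 0 called, where 2.47% of genes were at 24 h and 12.8% at 72 h.

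The receptors of these ligands were little represented. Of 14 receptor genes, 9 exceeded 1 FPKM in no library. Ccr2, the receptor for Ccl2 and Ccl7, reached at most 0.0835 FPKM, Ccr3, the receptor for Ccl11, at most 0.0870 FPKM, and Ccr6 was listed at 0 in all 24 libraries. The scavenging receptor Ackr4 exceeded 1 FPKM in all 24 libraries. None of the receptors tested was called in the 4 comparisons, which tested few of them. In standard co-culture 2 were tested at 24 h and 4 at 72 h, where 0% of all genes were called. In inverse co-culture 2 were tested at each time, where 2.47% of genes were called at 24 h and 12.8% at 72 h.

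Among 15 inducers and their receptors, Il6, an inflammatory cytokine, was the one gene called. It rose in inverse co-culture from 26.8 ± 4.93 to 63.1 ± 18.4 FPKM at 24 h (SD, n = 3, log2 fold change 1.19, limma adjusted p = 0.0311) and from 37.0 ± 22 to 107 ± 26.8 FPKM at 72 h (1.70, adjusted p = 0.0482). Tnf reached at most 4.85 FPKM and Il1b at most 0.932 FPKM in any library. Of 14 NF-kB factors and feedback genes, Bcl3, a nuclear partner of NF-kB, rose from 27.9 to 45.7 FPKM at 24 h (log2 fold change 0.70, adjusted p = 0.0447) and from 31.6 to 50.2 FPKM at 72 h (0.67, adjusted p = 0.0191). No other gene of these 2 lists was called in any of the 4 comparisons. In the inverse model 12 inducers were tested at each time, and 13 NF-kB genes at 24 h and 14 at 72 h. Of all genes, 2.47% were called there at 24 h and 12.8% at 72 h.

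Of 9 macrophage growth factors and receptors, 5 were tested in inverse co-culture at 72 h, of which 1 rose and 1 fell, where 3.27% of genes rose and 9.57% fell. Mif rose from 206 to 388 FPKM (log2 fold change 0.90, adjusted p = 0.0177), and Csf2ra, a receptor subunit for granulocyte-macrophage colony-stimulating factor, fell from 20.1 to 13.05 FPKM (-0.62, adjusted p = 0.0307). Csf1, the ligand of Csf1r, was at 772 to 2025 FPKM over the 24 libraries. Of 16 interferon-stimulated genes, 2 fell in inverse co-culture at 72 h among 11 tested, one of them Ifit3 (-1.77, adjusted p = 0.0492), while Ccl6 and Ccl7 rose in the same libraries. The medians of these lists in that comparison were 0.48 and -0.30, beside -0.16 over all genes. In the standard model none of these lists had a gene called at either time, where 0% of all genes were called.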

How the data were processed

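RNA of PSC from 8 groups of 3 libraries was sequenced as poly(A) RNA. The authors had reads aligned with HISAT2 2.0.5 to GRCm38.p6 and counted with featureCounts 1.5.0-p3 at default settings, which disregard strand, and deposited FPKM values of 53801 genes. DESeq2 1.20.0 was used by the authors on counts not used here. Tool versions are from the submitters' processing notes. The FPKM are relative to each library's total, with no other scaling between libraries.

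Gene models were matched to GENCODE M21 for 53620 genes. Fragments were recovered from FPKM and were whole (within 0.05) in all libraries for 28816 of 28892 genes above 0, or 99.7%. Short members at low FPKM rest on few fragments. The moderated two-sided test of limma (version 3.58.1, R 4.3.3), with the prior variance following intensity, was applied to log2(FPKM + 0.5) of genes above 1 FPKM in at least 3 of the libraries compared, with Benjamini-Hochberg adjustment over all of them and an adjusted p limit of 0.05. With 3 against 3 libraries an exact permutation test cannot go below p = 0.1, so none is given. Other steps used Python (3.11.15), pandas (2.3.3), numpy (2.4.6), matplotlib (3.10.9) and scipy (1.17.1). The fits were tested on simulated data.

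The members and gene lists were chosen with earlier results of these data known. Named are all members, up to 4 called genes of each pathway list and comparison by fold change, Csf1r and Adgre1, and the 5 genes most like each member in Pearson r of log2(FPKM + 0.5). Cd53, Csf1, Tnf, Il1b, the receptors and the values of Ccl12 were added after values were seen. The sets of libraries without standard replicate 2 were also chosen then. Some items are not reported here.

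The pairing by replicate number comes from the data, as the sources used here do not say that a number marks a shared isolation. In the standard model every pair of same-numbered libraries correlated in its deviations from the group means, at 0.55 to 0.82 at 24 h and 0.48 to 0.60 at 72 h, and every co-culture correlated best with the control of its own number. In the inverse model these were -0.17 to 0.04 and -0.13 to 0.10. Alternatives were other pseudocounts, filters, scaling, fits, libraries and limma-voom.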

Additional observations from a re-analysis of the deposited data

How the results depend on the processing

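Ccl6 in inverse co-culture at 72 h was called under every alternative run, with adjusted p-values from 0.0018 to 0.0328 and log2 fold changes from 3.17 to 4.43. Of the values of single members under alternatives that kept all libraries or named sets of them, 273 kept direction and call or class, 14 lost the call and 4 gained it, while 23 correlations with the macrophage score moved to another class and 5 changed sign. In inverse co-culture at 24 h, 1 member was called without a filter on low values, 1 without the intensity trend and 0 in one model over 24 libraries, against 3. The later time gave 1 in each of these, against 2. In inverse controls over time, 0 were called in one model over 24 libraries, against 3. With the replicate block, standard co-culture had 2 members called at 24 h and 1 at 72 h, against 0. The members that tracked macrophage transcripts numbered 5 from levels, 3 in the inverse model, 3 without the standard libraries with number 2 and 1 with the replicate block, against 9. The correlation turned negative for Ccl6 (-0.29) and Ccl8 (-0.41) in the inverse model and for Ccl6 (-0.11), Ccl7 (-0.0753) and Ccl8 (-0.38) with the replicate block. The cause was not tested.

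Over all genes tested, 317 were called in inverse co-culture at 24 h, 88 with the block, 528 with limma-voom and 12 in one model over 24 libraries. At 72 h there were 1678, 902 with the block and 940 in one model, and scaling by the median of gene ratios turned 427 up and 1251 down into 746 and 686. In inverse controls over time there were 2516, and 236 in one model. Standard co-culture had 0 called at either time, 157 and 1 with the block and 5 and 45 in one model. In inverse co-cultures over time there was 1, and 123 in one model.

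Without any 1 library, inverse co-culture had 1 to 3 members called at either time, with 2 to 3 in inverse controls over time and 0 in the other comparisons, and 9 tracked macrophage transcripts. The difference of the effect on Ccl6 between the models at 72 h ran from -0.82 to 1.35. In the inverse model the numbers did not pair the libraries, and the replicate block changed the call of Ccl7 at 24 h only. limma-voom with gene lengths of the reference annotation was not run, because these differ from the lengths behind the FPKM, and lengths that gave whole fragments were used, a choice made after seeing the data.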
